A study of Mus musculus with 8 samples.

Results

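The actin contractile apparatus genes described here are 9 genes whose products build or anchor contractile actin bundles in fibroblasts: Acta2, Tagln, Myl9, Tpm1, Tpm2, Cnn1, Cnn2, Actn1 and Vcl. They were chosen by name, from what their products do, and are 9 of 21853 protein-coding genes on chromosomes 1 to 19, X and Y. For each gene, the body was the span of its longest protein-coding transcript in GENCODE release M21 (mm10), and the values were the share of that body in peaks, the pileup per 1000000 tags and the position of each peak in all 4 H3K36me3 peak lists. The series holds 8 ChIP–seq libraries, of which 4 are H3K36me3 immunoprecipitations and 4 are their inputs, all at 72 h from i4F MEFs. These are mouse embryonic fibroblasts taken at E13.5 from 1 embryo (Clone 1 in the labels), and all of them carry a doxycycline-inducible cassette of OCT4, SOX2, KLF4 and MYC (OSKM). All cells were moved to medium for induced pluripotent stem cells. The condition MEF had neither doxycycline nor added vitamin B12, MEF B12 had 2 µM vitamin B12, OSKM had doxycycline at 1 µg/ml as the labels give it, and OSKM B12 had both. The methods of the study give the doxycycline dose with another unit, and the discrepancy was not resolved. The antibody is named H3K36me3 in the labels and the study, except that the extraction text of the labels writes H3K3me3, which was not resolved either. With 1 immunoprecipitation and 1 input per condition, differences between conditions rest on single libraries and carry no p-value.

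Contractile bundles, or stress fibres, are made of actin filaments that are lined by tropomyosin, cross-linked by α-actinin, pulled on by myosin II and tied through vinculin to the focal adhesions at the cell surface. Fibroblasts on stiff plastic are known to assemble many of them, and their genes are classic targets of serum response factor (SRF) and its actin-sensing co-activators. The mark read here, trimethylation of lysine 36 of histone H3 (H3K36me3), is set by SETD2, which travels with elongating RNA polymerase II, so that the mark lies over the bodies of transcribed genes and is as a rule denser towards their 3′ ends. The methyl group comes from S-adenosylmethionine, whose supply depends on the vitamin B12-dependent methionine synthase. The comparisons ask how the mark over these bodies differed when OSKM was expressed, and how it differed when vitamin B12 was added with or without OSKM.

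A broad peak in these lists carries 1 mean pileup, the number of extended fragments over its bases, which was scaled to 1000000 tags of the library. The density of a gene is this scaled pileup summed over the body bases in peaks and divided by the length of the body, so densities may be compared between genes. A gene counts as marked where at least 10% of its body was in peaks in at least 1 library, which 9885 genes were. A gene counts as past the fold where its density plus 0.05 differed at least 1.5-fold between libraries, and log2 changes are on the same scale of density plus 0.05, which makes changes of low genes smaller. Ratios of densities are given without the added 0.05. Their 95% intervals are exact for the tags estimated under the peaks, so they cover counting error only and leave out differences between cultures and immunoprecipitations. The tags are estimated from the mean pileup of each whole peak. Where a peak runs far past the gene end, as in Acta2 and Tagln, they are no direct count over the body, and the intervals are approximate.

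The libraries held between 29046913 and 33399267 H3K36me3 tags and between 65473 and 69420 peaks. The OSKM library stood apart from the others over all marked genes. The median density of the marked genes was 0.130 in OSKM, 0.267 in MEF, 0.319 in MEF B12 and 0.335 in OSKM B12. The median log2 change of the 9885 marked genes was −0.70 from MEF to OSKM, 0.98 from OSKM to OSKM B12 and 0.21 from MEF to MEF B12, and the members are set against these shifts. MEF to OSKM and OSKM to OSKM B12 share the OSKM library, so that a low or high value in that library enters both. With 1 library per condition, the library and the condition cannot be told apart. In the same way, fewer cells that carry the mark and less of the mark per cell cannot be told apart in bulk chromatin.

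All 9 genes were marked, and 7 of the 9 had at least 10% of their body in peaks in every library. Myl9 had no peak in OSKM. Cnn1 had no peak in OSKM or OSKM B12 and passed the minimum only through the 2 libraries without doxycycline. Taken over all 9 bodies, which sum to 277.8 kb, peaks covered 47.5% in MEF and 48.5% in MEF B12, against 29.0% in OSKM and 47.2% in OSKM B12. Most of that length is Actn1 (92.8 kb) and Vcl (104.3 kb), so these pooled shares are mostly theirs. The median density of the 9 genes was 0.295 in MEF and 0.390 in MEF B12, against 0.189 in OSKM and 0.335 in OSKM B12. By density, the lowest library was OSKM for 8 of the 9 genes, and Cnn1 was at 0 in both OSKM libraries.

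A short stretch from each of 2 genes shows where a peak was kept in OSKM and where none was listed. A stretch outside the listed peaks may still hold signal below the threshold. Each holds 1 coding exon (in capitals) with the intron bases on both sides (in lower case), written 5′ to 3′ on the strand of the gene, from the reference GRCm38.p6. The Acta2 stretch, exon 8 at chr19:34243257-34243556 on the minus strand, lay in a peak over all 300 bases in each of the 4 libraries, and it sits in the longest Acta2 peak that OSKM had. The Myl9 stretch, exon 3 at chr2:156780412-156780711 on the plus strand, lay in a peak over 300 bases in MEF and 273 in MEF B12, but over 0 in OSKM and 87 in OSKM B12.
Acta2 exon 8: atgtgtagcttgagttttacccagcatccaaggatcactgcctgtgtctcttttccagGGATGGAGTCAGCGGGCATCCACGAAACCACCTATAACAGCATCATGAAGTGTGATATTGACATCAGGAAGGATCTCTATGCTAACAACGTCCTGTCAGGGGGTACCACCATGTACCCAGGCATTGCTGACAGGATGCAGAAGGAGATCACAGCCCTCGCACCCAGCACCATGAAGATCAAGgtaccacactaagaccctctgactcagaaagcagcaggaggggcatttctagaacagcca
Myl9 exon 3: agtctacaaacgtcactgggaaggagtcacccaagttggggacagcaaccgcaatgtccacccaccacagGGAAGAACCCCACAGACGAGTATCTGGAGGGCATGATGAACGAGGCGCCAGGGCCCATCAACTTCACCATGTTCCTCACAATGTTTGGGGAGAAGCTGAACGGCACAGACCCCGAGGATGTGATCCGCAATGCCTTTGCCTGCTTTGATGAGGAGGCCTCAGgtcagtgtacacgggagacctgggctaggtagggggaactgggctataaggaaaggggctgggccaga

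**Figure D1:**
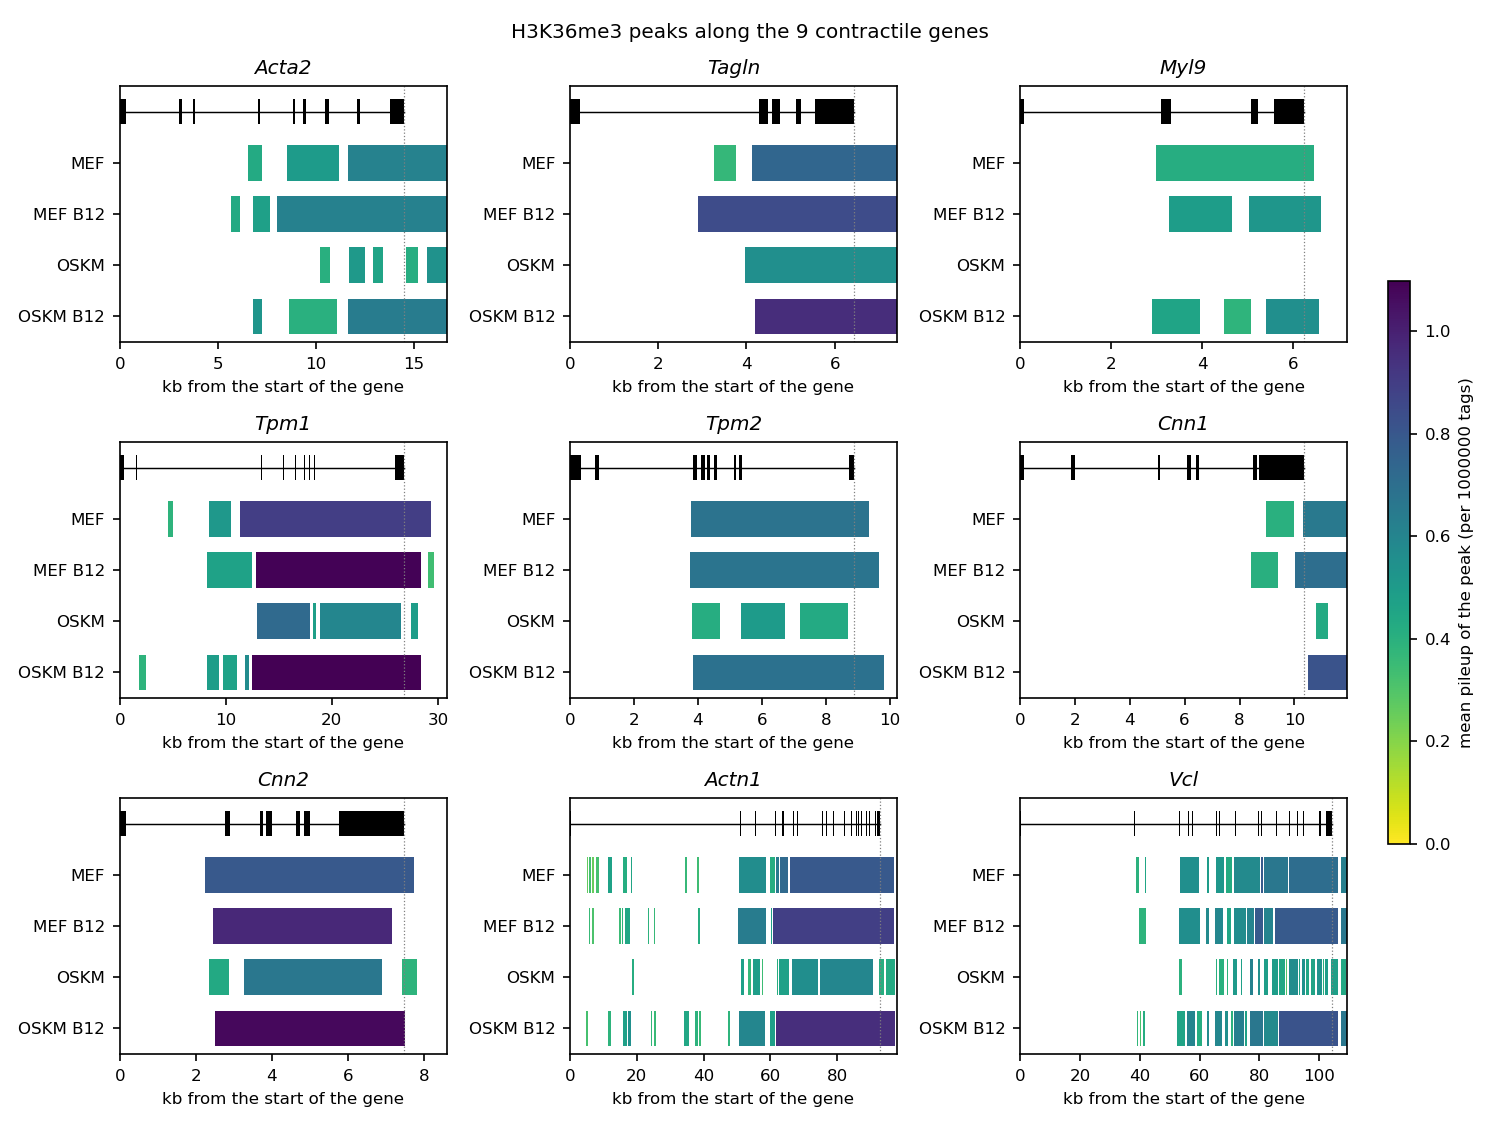
H3K36me3 peaks along the 9 contractile genes (x axis, kb from the start of the gene, each drawn 5′ to 3′ and cut off at most 5 kb past its end, which the dotted line marks) in the 4 libraries (rows), with exons as black blocks and the colour giving the mean pileup of each peak per 1000000 tags. Peaks begin inside the body and gather towards the 3′ end, the longest OSKM peak is shorter than that of each other library in Acta2, Tpm1, Tpm2, Cnn2, Actn1 and Vcl but not in Tagln (6671 bases, against 6541 in OSKM B12), Myl9 has none in OSKM, and Cnn1 has none within its body in OSKM or OSKM B12.

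Acta2 (chr19:34241090-34255590, minus strand, 9 exons) encodes α-smooth muscle actin, the actin isoform that marks contractile fibroblasts. Its density was 0.235 in MEF and 0.321 in MEF B12, against 0.0606 in OSKM and 0.209 in OSKM B12. The share of its body in peaks was 43.2%, 54.3%, 13.0% and 39.4% in the same order. By density and covered share, OSKM was thus far below the other 3 libraries, and the intervals of density did not overlap it. The ratio of OSKM to MEF was 0.258 (95% interval 0.205 to 0.322), and only 5.17% of marked genes had a lower log2 change than its −1.36. OSKM kept 3 peaks of 505 to 864 bases in introns 6 to 8, which touched 2 of the 9 exons, where each of the other libraries touched 6. OSKM B12 was 3.45 times OSKM (2.75 to 4.36), a log2 change of 1.23 that 80.4% of marked genes stayed under, and of the MEF bases absent from OSKM, 87.2% were in peaks again. Set against MEF B12, OSKM B12 stayed lower, with a ratio of 0.650 (0.562 to 0.754), and 2.48% of marked genes were lower in that comparison. These densities count bases outside peaks as 0. Over the 1884 Acta2 bases in peaks in all 4 libraries, the mean pileup differed far less. There OSKM was 0.800 times MEF, against 0.754 over shared bases of all marked genes, and OSKM B12 was 1.24 times OSKM, against 1.57. Beyond the 3′ end, 0.757 kb separate Acta2 from Stambpl1 on the opposite strand, and the 5 kb past the end were in peaks over 100% in MEF, MEF B12 and OSKM B12 and 72.4% in OSKM. In those 3 libraries the 3′ peak of Acta2 ran on into that neighbour, while in OSKM the Acta2 peaks ended inside the body and the peaks beyond it were separate. In MEF, 7135 of the 9981 bases of the 3′ peak lay past the end of Acta2. The mean pileup of the 3′ peak in those 3 libraries, which enters the densities and ratios above, is therefore in part a value of Stambpl1. The share of it that belongs to Acta2 was not tested.

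Tpm1 and Tpm2 encode tropomyosins, coiled-coil dimers that lie along actin filaments and govern the access of myosin and other proteins. Tpm1 (chr9:67022590-67049406, minus strand, 9 exons) had the highest density of the 9 genes in MEF, 0.562, with 0.642 in MEF B12, and it had 0.307 in OSKM beside 0.646 in OSKM B12. OSKM was the low library, at 0.546 times MEF (0.504 to 0.592), while MEF B12 and OSKM B12 were within counting error of each other. The share of the body in peaks was 66.9%, 68.0%, 48.0% and 66.3%. Its main peak in OSKM B12 had a fold enrichment over input of 6.31, higher than 99.4% of all peaks in that list.

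Tpm2 (chr4:43514711-43523595, minus strand, 9 exons) had densities of 0.389 in MEF and 0.391 in MEF B12, against 0.190 in OSKM and 0.391 in OSKM B12. The 3 libraries other than OSKM were level, and their intervals overlapped. A single peak from intron 2 past the 3′ end held the body in each of those 3 libraries, and in OSKM it was replaced by 3 peaks of 871 to 1492 bases. The ratio of OSKM to MEF was 0.490 (0.410 to 0.583), and 99.0% of the MEF bases absent from OSKM were back in peaks in OSKM B12. The 5′ edge of its peaks lay between 3.74 and 3.83 kb from the start in all 4 libraries, a spread of under 0.1 kb.

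Tagln (chr9:45929619-45936058, minus strand, 5 exons) encodes transgelin, or SM22α, a small protein that bundles actin and is related to the calponins. Its density was 0.295 in MEF and 0.466 in MEF B12, against 0.215 in OSKM and 0.335 in OSKM B12, and the share of its body in peaks was 43.7%, 55.1%, 38.6% and 35.0%. It had the smallest log2 difference of the 9 genes from MEF to OSKM, −0.38, and 88.2% of marked genes were lower. It also differed little from OSKM to OSKM B12, with a ratio of 1.56 (1.27 to 1.93) and a log2 change of 0.54 that only 5.06% of marked genes fell under. Both values rest on its OSKM peak, whose −log10 q was 4.52: with the lists limited to peaks of 5 or more this peak drops out, and the log2 changes become −2.66 and 2.94. In OSKM B12 the height of its peak, 0.957 per 1000000 tags, was above the 0.740 of MEF, while the peak began later, 4.19 kb from the start against 3.26 kb in MEF and 2.89 kb in MEF B12. None of the 498 MEF bases absent from OSKM, all in intron 1, were in peaks in OSKM B12. Tagln shares 94 bases at its 3′ end with Pcsk7 on the opposite strand, and its 3′ peak ran 4.19 to 20.6 kb past its end into Pcsk7, which was in peaks over 76.2% to 89.3% of its body. The mean pileup of that peak is therefore in large part a value of Pcsk7, and the share of it that belongs to Tagln was not tested.

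Cnn1 and Cnn2 encode calponins, which bind actin and tropomyosin; calponin 1 is typical of smooth muscle and calponin 2 is found in many cells. Cnn2 (chr10:79988584-79996062, plus strand, 7 exons) had densities of 0.556 in MEF and 0.616 in MEF B12, against 0.354 in OSKM and 0.714 in OSKM B12. Cnn2 was the highest of the 9 genes in both OSKM and OSKM B12, and the lowest of its 4 libraries, OSKM, was still covered over 56.3% of the body, against 70.0%, 63.1% and 66.6% in MEF, MEF B12 and OSKM B12. The log2 change from MEF to OSKM was −0.58, just short of the 1.5-fold mark at 0.58 on the log2 scale, and the ratio was 0.638 (0.549 to 0.737). OSKM B12 was 1.29 times MEF (1.13 to 1.46), the highest such ratio of the 9 genes. Its peaks end within 0.35 kb of the 3′ end in every library.

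Cnn1 (chr9:22099268-22109630, plus strand, 7 exons) was the lowest of the 9 genes in MEF and MEF B12, with densities of 0.0430 and 0.0618, and was listed at 0 in OSKM and OSKM B12. Peaks covered 10.5% of the body in MEF and 12.7% in MEF B12, all of it from 81.3% of the way along the body onwards, between intron 5 and exon 7. No ratio is given against 0, and its log2 change of −0.89 from MEF to OSKM depends on the added 0.05. No enrichment over the Cnn1 body was detectable at this depth in OSKM or OSKM B12. Past its 3′ end the picture differed: the next 5 kb were in peaks over 90.8% in MEF and 97.0% in MEF B12, against 49.7% in OSKM and 87.3% in OSKM B12. The peak there ran 40 bases into the body from 4.54 kb past the end in MEF and began 146 bases past the end in OSKM B12. The 3′ end of Elof1, on the opposite strand, lies 3.36 kb beyond the end of Cnn1. The Cnn1 bases in peaks thus lie beside a marked stretch present in all 4 libraries.

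Myl9 (chr2:156775420-156781658, plus strand, 4 exons) encodes a regulatory light chain of myosin II, whose phosphorylation switches the motor on. It was listed at 0 in OSKM, and its density elsewhere was 0.216 in MEF, 0.211 in MEF B12 and 0.189 in OSKM B12. The 3 libraries with peaks were within counting error of each other, with 52.3%, 42.0% and 40.0% of the body in peaks. Its single MEF peak was weak, with a fold enrichment of 2.71 and a −log10 q of 2.60, and 53.6% of all MEF peaks had a lower fold enrichment. The other 8 genes had a strongest MEF peak at or above the fold enrichment of 89.3% of the list. For Cnn1, however, that peak lay almost wholly past the 3′ end. The Cnn1 peak inside the body was as weak as that of Myl9, with a fold enrichment of 2.73 and a −log10 q of 2.58. Since a list holds only what passed its threshold, the size of the Myl9 difference between MEF and OSKM is not known, and its log2 change of −2.41 depends on the added 0.05 (−3.56 with 0.02 and −1.66 with 0.1). With the lists limited to a −log10 q of 5 or more, Myl9 had no peak in MEF or OSKM. Of the 3266 MEF bases that OSKM lacked, 74.0% were in peaks in OSKM B12, as 3 separate peaks. No protein-coding gene lies within 58.3 kb past its 3′ end, and peaks reached at most 0.364 kb beyond it.

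Actn1 (chr12:80167547-80260371, minus strand, 21 exons) encodes α-actinin 1, the dimer that cross-links the filaments of a bundle. Its density was 0.335 in MEF and 0.390 in MEF B12, against 0.189 in OSKM and 0.412 in OSKM B12, so that OSKM was the lowest and OSKM B12 the highest library. The ratio of OSKM to MEF was 0.564 (0.534 to 0.596), and its log2 change of −0.69 was near the median of all marked genes. OSKM B12 was 2.18 times OSKM (2.07 to 2.30) and 1.23 times MEF (1.18 to 1.29). Its first intron is long, and peaks covered 11.5% of it in MEF and 10.9% in MEF B12, but 0.871% in OSKM beside 15.7% in OSKM B12, while later introns were covered over 94.0%, 95.8%, 75.8% and 95.8%.

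Vcl (chr14:20929398-21033676, plus strand, 21 exons) encodes vinculin, which links talin at the focal adhesion to actin. Its density was 0.267 in MEF and 0.290 in MEF B12, against 0.109 in OSKM and 0.282 in OSKM B12, with 43.1%, 43.5%, 22.4% and 42.8% of the body in peaks. OSKM was 0.409 times MEF (0.383 to 0.437), and MEF and OSKM B12 differed by 1.06 times (1.01 to 1.11). The mark over Vcl was broken up in OSKM: 21 peaks of at most 3.15 kb were listed there, against 10 peaks of up to 16.6 kb in MEF and 15 of up to 19.8 kb in OSKM B12. The first intron held no base in a peak in any library. The last 2235 bases of Vcl overlap Ap3m1 on the opposite strand, and its 3′ peak runs 2.04 to 2.13 kb past the end.

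**Figure D2:**
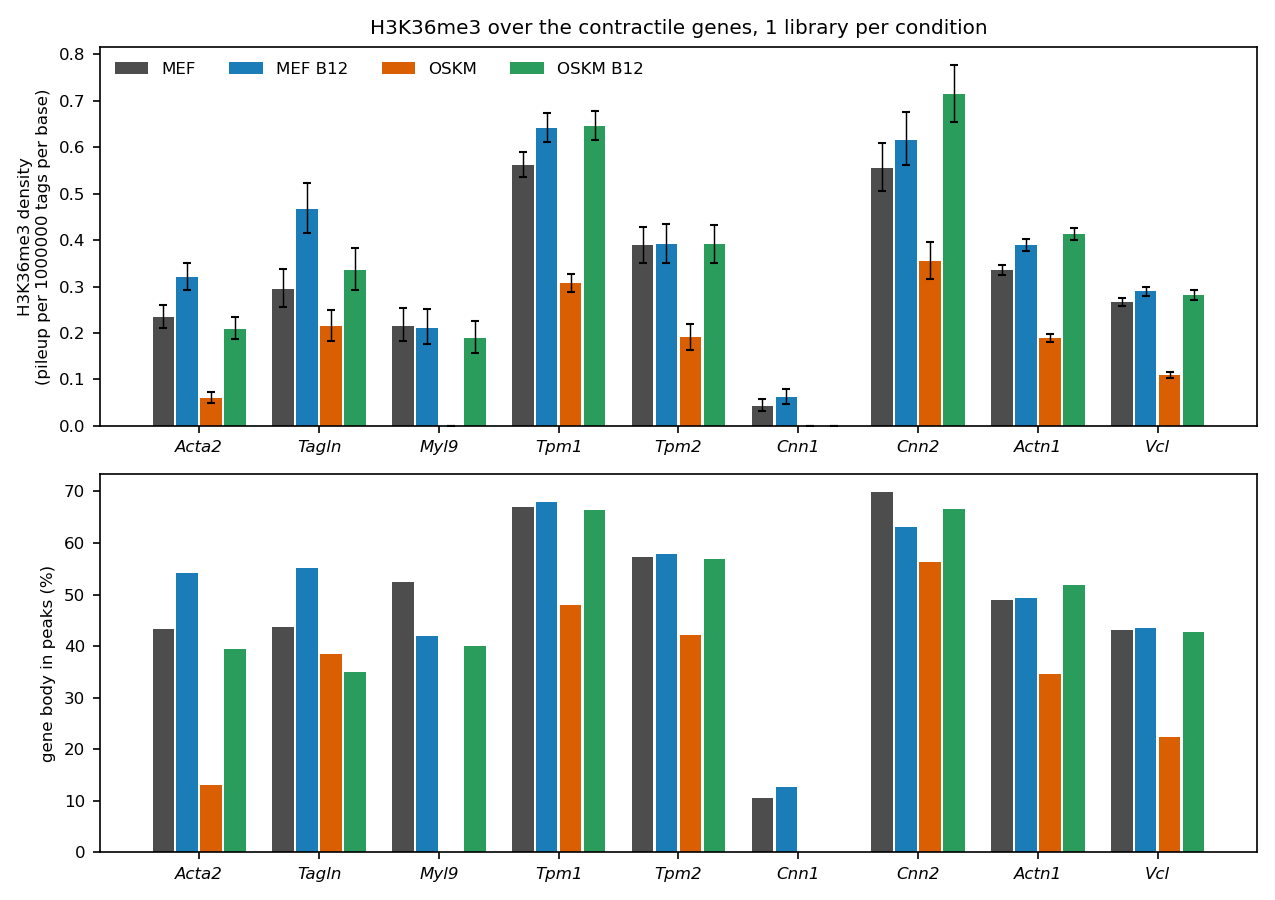
H3K36me3 density (upper panel, pileup per 1000000 tags per base of gene body) and share of the gene body in peaks (lower panel, %) of the 9 genes in the 4 libraries, 1 library per bar. Error bars are exact 95% counting intervals (none is drawn where no peak is listed); OSKM is the lowest bar for each gene in the upper panel (tied at 0 with OSKM B12 for Cnn1).

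In MEF the densities ran from Tpm1 (0.562) and Cnn2 (0.556), whose intervals overlapped, down through Tpm2 (0.389), Actn1 (0.335), Tagln (0.295), Vcl (0.267), Acta2 (0.235) and Myl9 (0.216) to Cnn1 (0.0430). The neighbours from Actn1 to Myl9 overlapped in their intervals, while Tpm2 stood clear of both its neighbours and Cnn1 of Myl9. In OSKM the order was Cnn2, Tpm1, Tagln, Tpm2, Actn1, Vcl and Acta2, with Tagln, Tpm2 and Actn1 overlapping, and Vcl and Acta2 each clear of its neighbours. Cnn2 and Tpm1 were the leading pair in all 4 libraries and overlapped in each of them.

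From MEF to OSKM the density was at least 1.5-fold lower in 7 of the 9 genes, against a background of 67.3% of marked genes. The 7 include Myl9 and Cnn1, which were listed at 0 in OSKM, and without these genes the count was 5 of 7. Tagln and Cnn2 were the other two, and Cnn2 lay just outside the mark at −0.58. The median log2 change of the 9 genes was −0.87, and −0.16 relative to the median of all marked genes. The range was wide: Myl9 at −2.41, Acta2 at −1.36 and Vcl at −0.99 were the lowest, and Actn1 at −0.69 was the nearest to that median. The covered share was lower in 9 of 9 genes, where it was lower in 93.5% of marked genes, and fell short of MEF by a median of 15.0 percentage points. These counts are near their background and are no result about these genes. The order of the members depended on the peak threshold. With the lists limited to a −log10 q of 5 or more, 7 genes were again past the fold, but only 5 of them were shared: Tagln and Cnn2 came in, and Myl9 and Cnn1 left. The lowest log2 changes were then Tpm2 at −3.13, Tagln at −2.66 and Vcl at −2.03, with Acta2 at −1.77, Cnn1 at −0.07 and Myl9 at 0, beside a median of −0.96 over all marked genes.

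From OSKM to OSKM B12 the density was at least 1.5-fold higher in 7 of the 9 genes, against 93.5% of marked genes. The exceptions were Tagln, at 0.54 on the log2 scale, and Cnn1, listed at 0 in both. The median log2 change was 0.95, and −0.03 relative to all marked genes. Myl9 at 2.26 and Acta2 at 1.23 were the highest, where the value of Myl9 depends on the added 0.05, and the 5 genes Tpm1, Tpm2, Cnn2, Actn1 and Vcl lay between 0.87 and 1.06. The covered share was higher in 7 of the 9 genes, against 96.6% of marked genes. It was 3.57 percentage points lower in Tagln and at 0 in both libraries in Cnn1.

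From MEF to MEF B12 no gene was past the fold in either direction, where 4.68% of marked genes were at least 1.5-fold higher. Tagln came nearest with a log2 change of 0.58 and a ratio of 1.58 (1.32 to 1.90), followed by Acta2 at 0.38 and a ratio of 1.37 (1.19 to 1.57). The median of the 9 genes was 0.18, and −0.03 relative to all marked genes. Tpm2, Cnn2, Myl9 and Cnn1 had intervals of the ratio that held 1. The covered share was higher in 7 of the 9 genes, against 70.3% of marked genes; the largest differences were 11.4 percentage points for Tagln and 11.0 for Acta2. Myl9 and Cnn2 were lower, by 10.3 and 6.89 percentage points.

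Between MEF and OSKM B12, the density was at least 1.5-fold lower in OSKM B12 for 1 of the 9 genes, Cnn1, against 1.03% of marked genes, and higher than MEF past the fold for none. Cnn1 had been counted as marked only through MEF and MEF B12 and was at 0 in OSKM B12, so nothing is read from that call. The covered share was lower in 8 of the 9 genes, against 28.6% of marked genes, and higher only in Actn1. The 8 include Cnn1, from which nothing is read. Density did not show the same fall: its median log2 change was 0.07 in the 9 genes, and −0.19 relative to all marked genes. The differences in covered share were under 1 percentage point in Tpm1, Tpm2 and Vcl, and were 8.74 in Tagln, 10.5 in Cnn1 and 12.4 in Myl9.

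**Figure D3:**
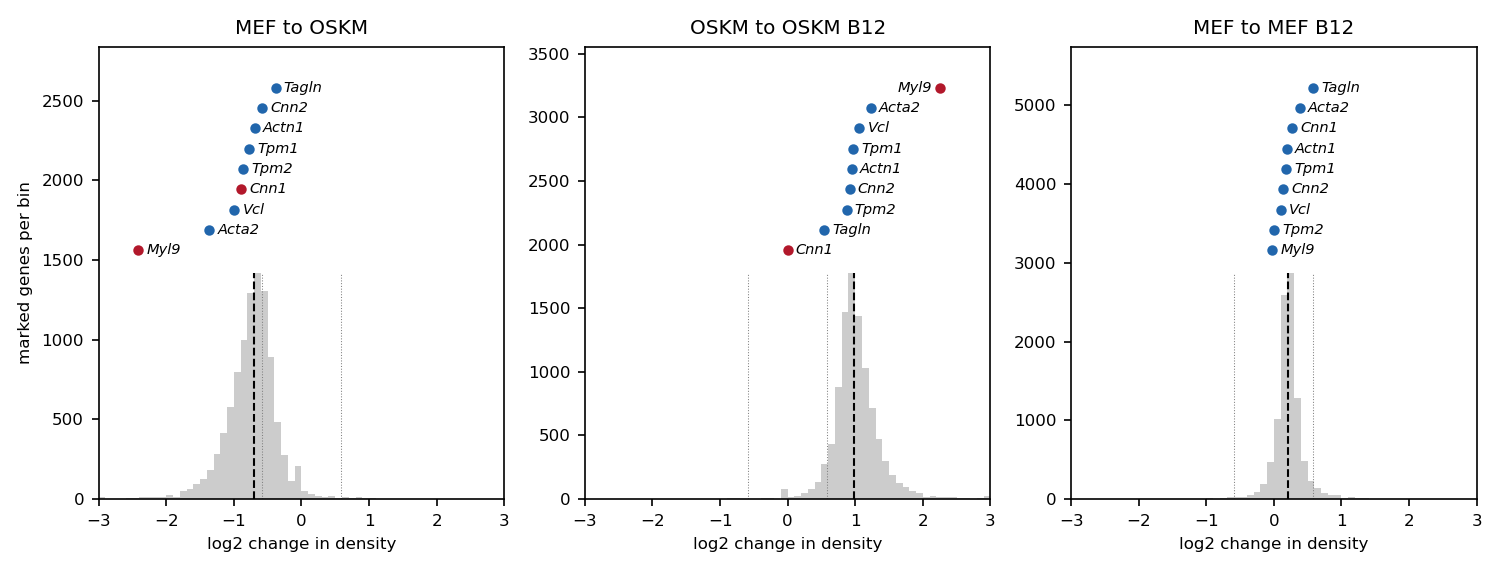
Log2 change in H3K36me3 density (x axis, on density plus 0.05) of the 9 genes (points, placed above one another for legibility) over the histogram of the 9885 marked genes (grey, values beyond ±3 set to the last bin) for the 3 comparisons. The dashed line is the median of the marked genes, dotted lines mark 1.5-fold, and red points are genes listed at 0 in 1 or both libraries of the comparison, whose place depends on the added 0.05; most members sit near the dashed line, with Myl9, Acta2, Tagln and Cnn1 away from it.

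How much of the MEF pattern was missing in OSKM, base for base, could be read from the peak positions. Of the 132004 body bases in peaks in MEF, 45340 lay in Actn1 and 44953 in Vcl, so that the pooled shares given here are mostly values of these long genes. Of all 132004 bases, 40.2% were not in peaks in OSKM, against 42.6% over the bodies of all marked genes. The share was 100% in Myl9 and Cnn1, 69.9% in Acta2, 49.8% in Vcl and between 17.7% and 30.8% in Actn1, Tpm1, Tpm2, Cnn2 and Tagln. Of the bases missing in OSKM, 77.8% were in peaks in OSKM B12, against 76.1% over all marked genes. That share was 0 in Cnn1 and Tagln and between 69.7% and 99.0% in the other 7 genes. Of the OSKM bases, 2.06% lay outside the MEF peaks, and 9.14% of the OSKM B12 bases did. Most of these bases were in Actn1 and Vcl, with 710 and 788 of 1663 in OSKM and 5682 and 4834 of 11974 in OSKM B12. The matching shares over all marked genes were not computed, so nothing is read from these values about the 9 genes.

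Within the bodies, the mark was set further towards the 3′ end than in the average marked gene. Peaks covered 2.82% of the bases in the first 5 of 20 equal bins of the body in MEF on average over the 9 genes, against 16.1% over all marked genes, and 91.7% of the last 5 bins, against 69.8%. In OSKM the corresponding values were 0.211% and 58.7% for the 9 genes, and 9.07% and 49.9% for all marked genes. In MEF the 3′ peaks of Acta2, Tagln, Vcl and Cnn1 ran past the gene end into neighbours on the opposite strand. The part these peaks have in the last bins was not tested, and the marked genes were not matched for length or neighbours. The first covered base lay at a median of 42.7% of the body in MEF, against 23.5% in all marked genes with a peak, and 7 of the 9 genes were above that median. Actn1 at 5.36% and Tpm1 at 17.0% were the early ones, and Cnn1 at 86.4% the latest. Both early edges rest on short, weak peaks, of 292 bases in Actn1 and 425 in Tpm1, each with a −log10 q of 1.40. The next Tpm1 peak in MEF began 8430 bases from the start. In MEF B12, Tpm1 began at 30.7%, above the median of 22.0% of marked genes there. In OSKM the median of the 7 genes with a peak was 48.2%, against 29.6%, and in OSKM B12 that of 8 genes was 40.3%, against 21.01%. In Acta2, Tpm1, Tpm2, Cnn1 and Vcl, the first intron held no base in a peak in any library.

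**Figure D4:**
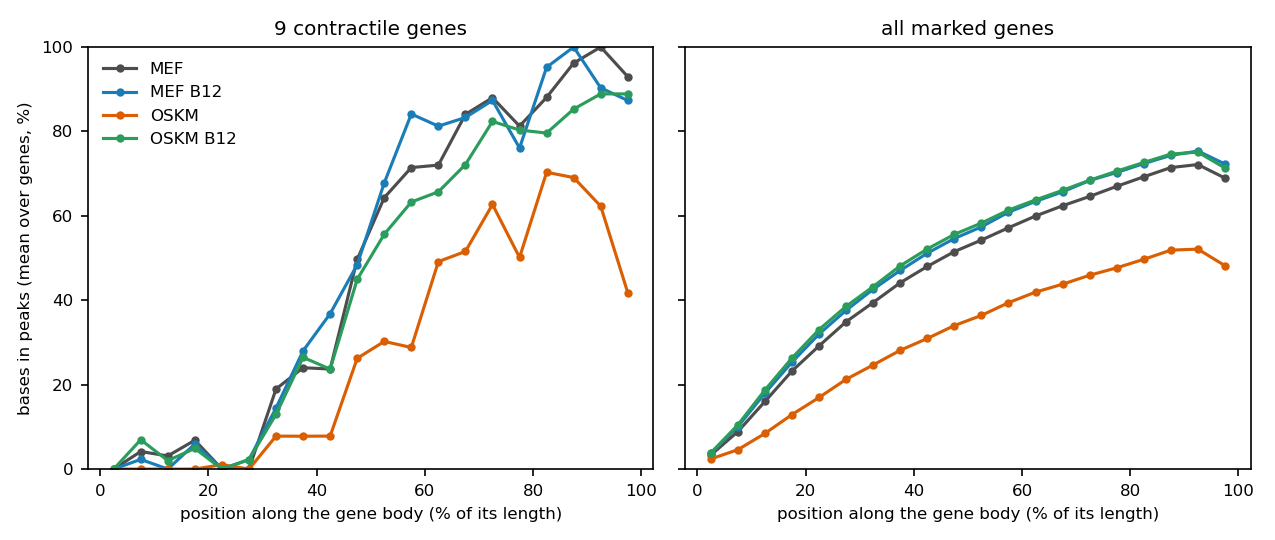
Share of bases in peaks (y axis, mean over genes, %) in 20 equal bins from the start to the end of the gene body (x axis, % of its length) for the 9 contractile genes (left) and all 9885 marked genes (right), 1 line per library. The members have almost no peak near the start and rise steeply in the middle of the body. OSKM lies below the other 3 libraries throughout the right panel and from bin 7 onwards in the left panel. Nearer the start of the members it is not always the lowest, and in bin 5 it alone is above 0, at 1.05%.

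No base of the window from 250 bases before to 50 bases after the GENCODE start was in a peak in any library, in 9 of 9 genes. The CArG box, the site of SRF, was searched for in windows of the same span on RefSeq starts (GRCm38.p6), which can differ from the GENCODE starts. Peaks were not counted over the RefSeq windows. Of the 9 genes, 8 have a window in the RefSeq table used, and Tagln has none. The motif, whose pattern reads the same on both strands, occurred in 3 of the 8 windows and in 1.63% of all 32851 windows of that length. The bases before the start of the 3 genes that hold it are shown here for the motif (in capitals), each written 5′ to 3′ on the plus strand.
Myl9, chr2:156775214-156775419: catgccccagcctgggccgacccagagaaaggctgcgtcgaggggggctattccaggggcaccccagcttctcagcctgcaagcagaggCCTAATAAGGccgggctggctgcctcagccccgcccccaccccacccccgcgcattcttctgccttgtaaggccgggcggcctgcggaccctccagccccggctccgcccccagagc
Cnn2, chr10:79988350-79988583: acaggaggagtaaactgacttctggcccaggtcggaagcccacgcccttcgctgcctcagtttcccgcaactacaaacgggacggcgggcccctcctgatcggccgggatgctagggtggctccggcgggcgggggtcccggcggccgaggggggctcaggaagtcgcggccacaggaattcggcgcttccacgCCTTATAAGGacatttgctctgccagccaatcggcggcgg
Vcl, chr14:20929148-20929397: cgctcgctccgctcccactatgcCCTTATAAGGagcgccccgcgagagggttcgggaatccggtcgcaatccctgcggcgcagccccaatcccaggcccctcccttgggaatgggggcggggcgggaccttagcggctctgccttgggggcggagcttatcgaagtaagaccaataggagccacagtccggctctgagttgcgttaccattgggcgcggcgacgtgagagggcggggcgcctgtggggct

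The box begins 117 bases before the GENCODE start in Myl9, 40 in Cnn2 and 227 in Vcl. Cnn2 and Vcl hold the same 10 bases. The 3 genes did not move alike: from MEF to OSKM the log2 change was −0.58 in Cnn2 and −0.99 in Vcl, and Myl9 was listed at 0 in OSKM. That the box was not found in the windows of Acta2, Cnn1, Tpm1, Tpm2 and Actn1 says only that these letters are not within 300 bases around the RefSeq start.

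Other genes of the contractile apparatus were counted in lists chosen from what the genes do, to be read against the 67.3% of marked genes lower in OSKM and the 93.5% higher in OSKM B12. Among 16 paralogues of the members, 11 were marked, of which 7 were at least 1.5-fold lower in OSKM than in MEF and 9 higher in OSKM B12 than in OSKM, with medians of −0.68 and 0.90. Actb, the cytoplasmic β-actin, had the highest MEF density of them, 0.780, and a log2 change of −0.71 from MEF to OSKM. Tagln3 had the lowest change, −1.34, and Tagln2, the transgelin of most non-muscle cells, the least low, −0.28. Of 11 genes of the myosin II motor and its regulation, 9 were marked, 7 were lower and 9 higher, with medians of −0.77 and 0.97. Smtn (smoothelin) had the highest MEF density, 0.811, the kinase Rock1 the lowest change, −1.40, and Cald1 (caldesmon) the least low, −0.55. The smooth muscle heavy chain Myh11 was in peaks over under 1% of its body in each library.

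Of 18 focal adhesion and cross-linking partners, all were marked, 13 were lower and 17 higher, with medians of −0.66 and 0.95. Tln1, the talin that vinculin binds, had the highest MEF density, 1.02, while the kinase Ptk2 had the lowest change, −1.02, and the adaptor Pxn (paxillin) the least low, −0.39. Of 12 genes that control contractile gene transcription, 11 were marked, 6 were lower and 11 higher, with medians of −0.65 and 0.95. Tgfbr2, a receptor for TGFβ, had the highest MEF density, 0.418, Yap1 the lowest change, −1.08, and the SRF co-activator Mrtfa the least low, −0.40. Myocd, the co-activator of smooth muscle, had no peak in any library. No gene of these 4 lists was past the fold upwards from MEF to OSKM.

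The labelled cell type was checked against marker lists. Of 15 fibroblast markers, 14 were marked, and only Twist1 had no peak. Their summed density was 8.82 in MEF and 9.88 in MEF B12, against 5.01 in OSKM and 10.2 in OSKM B12, and the median log2 change of the 14 from MEF to OSKM was −0.73, near the −0.70 of all marked genes. The part of this list in the differences of the contractile genes was not tested. Of 7 markers of differentiated smooth muscle, which shares Acta2, Tagln, Myl9 and Cnn1, 1 was marked (Smtn), and Myocd, Actg2, Des and Synpo2 were at 0 in all libraries. None of 10 skeletal and cardiac muscle markers, 5 epithelial markers or 6 pluripotent cell markers was marked, and 1 was marked in each of the lists of 5 endothelial (Tek), 4 leukocyte (Csf1r) and 5 neural genes (Tubb3). Tek was higher in OSKM, with densities of 0.00993 in MEF and 0.0144 in MEF B12, against 0.0299 in OSKM and 0.128 in OSKM B12, while Csf1r was 0.153 in MEF and 0.0749 in OSKM, and Tubb3 was 0.116 in MEF and listed at 0 in OSKM. Of the pluripotent cell genes, Zfp42 alone had a peak, in OSKM, over 2.42% of its body.

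The genes whose pattern over the 4 libraries was most like the median of the 9 members, by Euclidean distance of log2 density, were Lamtor4 (distance 0.0822), Rab12 (0.0865) and 9530068E07Rik (0.0952). Lamtor4 had densities of 0.287, 0.388, 0.192 and 0.355 in the order used above. Likeness over 4 libraries is a description of these values.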

How the data were processed

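The 4 H3K36me3 libraries, 1 per condition, were analysed as peak lists; the 4 inputs entered only through the peak calling. Per the labels and file headers, the authors aligned reads with Bowtie 0.12.9 to mm10, merged runs, removed duplicates and called broad peaks with MACS2 2.2.6 on each library against its own input, with q cut-offs of 0.05 and 0.1. The deposited pileup is a signal, the mean fragment coverage of a peak, and was not scaled by the authors. The deposited fold enrichment is a ratio to the local input level, and the authors give significance as −log10 p and −log10 q. Peaks off chromosomes 1 to 19, X and Y were left out (at most 16 per list).

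Pileup was scaled to 1000000 H3K36me3 tags with Python 3.11 and numpy 2.4.6. Gene bodies came from GENCODE release M21. Estimated tags under a body, the pileup summed over bases and divided by the fragment length of 288 to 292 bases, gave exact Poisson intervals of densities and exact conditional binomial intervals of ratios (scipy 1.17.1). The interval sums were tested on simulated data.

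All 9 genes were named, with up to 3 genes per list (highest MEF density, lowest and highest change from MEF to OSKM) and the 3 genes most like the members. Members, lists and thresholds were chosen with earlier results of these data known. Alternatives were other peak sets, gene models, scalings, pseudocounts and folds. Coverage outside peaks and RNA were not analysed here.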

Additional observations from a re-analysis of the deposited data

Results flagged for a closer look

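The difference that vitamin B12 made had opposite signs without and with OSKM in 3 genes. With 1 library per condition these differences were not tested. The Tagln covered share was 11.4 percentage points higher in MEF B12 than in MEF and differed by −3.57 points between OSKM B12 and OSKM. The Myl9 covered share differed by −10.3 points without OSKM and 40.0 points with it, and its density by −0.00466 and 0.189. The Cnn2 covered share differed by −6.89 points without OSKM and 10.3 points with it. The density of Tagln and Cnn2 was higher with vitamin B12 in both backgrounds.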

How the results depend on the processing

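Of 33 values of the median log2 change of the 9 genes under another setting, 28 moved by less than a tolerance, and no median changed sign. The tolerance was the distance on the log2 scale from the centre to the end of the counting interval of the gene at the median. These counts include settings that could hardly act: no member peak had a fold enrichment under 2, and only Tagln and Vcl overlap other gene bodies. Restricting the lists to a −log10 q of 5 or more gave −1.63 from MEF to OSKM and 1.79 from OSKM to OSKM B12. Pileup not divided by tags gave 0.81 from OSKM to OSKM B12 and 0.024 from MEF to MEF B12, and a pseudocount of 0.1 gave 0.84 from OSKM to OSKM B12. The number of genes past the fold was within 1.5 times the reported one in 31 of 36 values. Under the stricter q, 5 of the 7 genes from MEF to OSKM were shared with the reported ones. With a fold of 2, it was 2 genes from MEF to OSKM and 3 from OSKM to OSKM B12. From MEF to MEF B12, where no gene was past 1.5-fold, it was 2 with the stricter q, 1 with bases in other gene bodies left out and 1 with a pseudocount of 0.02. Relative to all marked genes, the median of the members stayed below by 0.12 to 0.66 from MEF to OSKM under 6 other settings, and changed sign from OSKM to OSKM B12, between −0.11 and 0.08. Leaving out Myl9 and Cnn1, an alternative added after seeing the data, gave medians of −0.78, 0.95 and 0.18. Of 230 values of single genes with peaks in both libraries, 202 moved by no more than the distance from the centre to the end of their own counting interval. None that was past the fold changed sign. The settings that could hardly act are among the 230 too. For the 40 values of Myl9 and Cnn1 that involve a library at 0, the interval is no measure of movement, and the stricter q moved Myl9 from −2.41 to 0 and Cnn1 from −0.89 to −0.07 from MEF to OSKM, where it moved Tagln from −0.38 to −2.66. The causes were not tested. No paired analysis was possible because the labels give 1 replicate per condition.

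The pileup is 1 mean per peak, so the profile inside a peak and signal below the threshold are not seen, and a peak that runs into a neighbour mixes both genes.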
